A study of Homo sapiens with 12 samples.

Results

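The EGR and other immediate early genes described here are 10 genes named by symbol: EGR1, EGR2, EGR3, IER2, IER3, IER5, DUSP1, ZFP36, SRF and CYR61. They were taken from a deposited table of FPKM values (fragments per kilobase of transcript, scaled to the mapped fragments of the library) as the rows whose list of gene names holds one of these symbols. All 10 were found, 1 row each, among 57908 loci, and all 10 are among the 15833 loci that reached 1 FPKM in at least 2 samples. The rule goes by symbol and uses no measured value, but the genes were chosen with earlier results of these data known. The IER3 row also names FLOT1, a lipid raft scaffold gene, and the ZFP36 row also names PLEKHG2. In those rows the reads of the neighbouring genes cannot be separated, and their values are given as those of the IER3 locus and the ZFP36 locus.

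All samples were of HCT116, an established line of human colorectal carcinoma cells, which the labels give as wild type throughout. Cells carried a plasmid for NSE4A-flag (NSE4 cells), for SMC5-flag (SMC5 cells) or a control plasmid (GFP cells, which the design text calls vector), where NSE4A and SMC5 are subunits of the SMC5/6 complex that acts in chromosome maintenance and DNA repair. One day after transfection the cells were split and given 1000 nM doxorubicin, a topoisomerase II poison, or PBS for 24 h. This made 6 groups of 2 libraries: GFP-DOX, GFP, NSE4-DOX, NSE4, SMC5-DOX and SMC5. The study asked how overexpressed SMC5/6 subunits act on growth and on the response to the drug. All groups share the same line and the transfection, and no untransfected cells were analysed here.

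Immediate early genes are transcribed within minutes of a growth factor, stress or wounding signal, without new protein synthesis, and are then silenced again. ERK signalling phosphorylates ELK proteins bound beside SRF at serum response elements, while actin dynamics free MRTF coactivators to bind SRF. Their messages are mostly short-lived, many carry AU-rich elements in the 3′ untranslated region, and several of the proteins, such as DUSP1 and ZFP36, feed back on the signal. In a culture collected a day after the drug was added, the values describe a standing level and not the first burst.

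The libraries held an estimated 13.1 to 19.2 M fragments (M, 1e6), read from the spacing of the lowest FPKM values, and 23635 to 26185 loci above 0. In which loci are above 0, the 2 columns of the SMC5-DOX group differed by less than sampling noise would give, so they may be 1 library and their mean entered the fits as 1 sample. They held 1091 identical values above 0 and 7 loci above 0 in only 1 of the columns, against 0 identical values and 4216 to 5291 such loci in the other 5 pairs. Abundant genes could still differ between them, and among the 10 the ratio of the second column to the first lay between 1.01 (EGR2) and 1.30 (IER2). NSMCE4A, which encodes NSE4A, was higher by 6.03 in NSE4-DOX and by 5.83 in NSE4 cells than in their GFP counterparts on the log2 scale. SMC5 was higher by 6.02 in SMC5-DOX and by 5.66 in SMC5 cells, although its uneven level in the other libraries left these differences short of the test over all loci (limma adjusted p = 0.272 and 0.27). CDKN1A, the cell cycle inhibitor induced by p53, rose with doxorubicin by 1.61 in GFP cells, 1.68 in NSE4 cells and 1.65 in SMC5 cells. All 7 epithelial marker genes reached 1 FPKM, with a summed level of 3151 to 3801 FPKM with doxorubicin and 3306 to 3914 FPKM with PBS. Of the fibroblast markers only COL1A1 reached 1 FPKM, with list sums of 15.6 to 27.1 FPKM with doxorubicin and 17.9 to 25.4 FPKM with PBS, and no leukocyte or endothelial marker reached 1 FPKM. APOA2 of the hepatocyte list and SYP and GFAP of the neural list did reach it in at least 1 library, with list sums of at most 1.51 and 6.24 FPKM.

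The promoters are shown first because SRF is itself one of the genes described and binds the CArG box, the core of the serum response element. From the RefSeq promoter table (GRCh38.p14), 10 start sites of 7 of the 10 genes were searched. IER3 and CYR61 have no entry there, and EGR3 was left out of the search. The 250 bases before each start were searched on both strands for the CArG box and for the cyclic AMP response element TGACGTCA. They were also searched on both strands for the EGR sites GCGTGGGCG or GCGGGGGCG, and on the gene's strand alone for TATAAA. EGR1 held 2 CArG boxes that begin 105 and 83 bases before its start, EGR2 held 1 at 71 bases before start 3 of its 3 listed starts, and SRF held 2 at 30 and 10 bases before the first of its 2 listed starts. A CArG box is held by 1.16% of the 35116 promoters listed. TGACGTCA was found in DUSP1 alone among the 7 genes, against 1.65% of all promoters, and TATAAA was also found in DUSP1 alone, against 6.80%. An EGR site was found in SRF alone, against 5.37% of all promoters. IER2, ZFP36 and IER5 held none of these motifs in this window, which says only that these letters are not in these bases, and no match overlapped another motif. Below, capitals mark the CArG boxes in EGR1, EGR2 and SRF and the cyclic AMP response element in DUSP1, the promoter of IER5 is shown because IER5 moved against most of the others, and each sequence runs 5′ to 3′ on the gene's strand up to the base before the start.
EGR1, chr5:138465229-138465478, plus strand: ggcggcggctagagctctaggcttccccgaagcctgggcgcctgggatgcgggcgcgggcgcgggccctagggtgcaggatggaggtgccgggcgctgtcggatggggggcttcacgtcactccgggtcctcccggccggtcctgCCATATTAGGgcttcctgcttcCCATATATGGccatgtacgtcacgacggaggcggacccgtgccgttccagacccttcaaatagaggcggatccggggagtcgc
EGR2 start 3, chr10:62816367-62816616, minus strand: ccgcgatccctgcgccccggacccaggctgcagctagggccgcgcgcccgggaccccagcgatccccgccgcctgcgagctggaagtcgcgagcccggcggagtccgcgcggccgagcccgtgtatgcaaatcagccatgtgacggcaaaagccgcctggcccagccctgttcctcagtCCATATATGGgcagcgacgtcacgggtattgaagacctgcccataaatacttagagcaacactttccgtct
SRF first start, chr6:43171019-43171268, plus strand: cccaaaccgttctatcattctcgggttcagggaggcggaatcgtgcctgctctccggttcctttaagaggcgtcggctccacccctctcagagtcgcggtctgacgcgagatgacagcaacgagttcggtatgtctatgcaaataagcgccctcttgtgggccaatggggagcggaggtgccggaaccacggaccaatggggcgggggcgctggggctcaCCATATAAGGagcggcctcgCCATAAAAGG
DUSP1, chr5:172771196-172771445, minus strand: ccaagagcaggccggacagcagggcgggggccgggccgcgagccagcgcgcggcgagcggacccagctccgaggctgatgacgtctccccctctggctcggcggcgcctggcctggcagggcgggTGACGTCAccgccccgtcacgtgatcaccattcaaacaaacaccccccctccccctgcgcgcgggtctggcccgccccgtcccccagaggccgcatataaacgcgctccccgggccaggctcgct
IER5, chr1:181088450-181088699, plus strand: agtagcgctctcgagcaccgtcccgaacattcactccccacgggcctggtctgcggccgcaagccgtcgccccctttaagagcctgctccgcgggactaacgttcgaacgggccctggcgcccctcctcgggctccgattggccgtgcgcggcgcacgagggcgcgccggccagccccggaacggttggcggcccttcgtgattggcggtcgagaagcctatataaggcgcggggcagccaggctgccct

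Doxorubicin lowered one set of these genes and raised another, with much the same genes called in each of the 3 plasmid backgrounds. In GFP cells 4 of the 10 fell (EGR1, IER2 and the IER3 and ZFP36 loci) and 2 rose (IER5 and SRF), at a Benjamini-Hochberg adjusted p under 0.05 in limma, fitted on log2(FPKM + 1) over all 15833 loci. Over all loci 14.1% fell and 17.0% rose in that comparison, 31.1% in all. In NSE4 cells the same 4 genes fell and the same 2 rose, against a background of 13.9% lower and 16.3% higher, 30.2% in all. In SMC5 cells IER2 and the IER3 and ZFP36 loci fell and IER5 and SRF rose, against a background of 9.87% lower and 11.0% higher, 20.9% in all, and EGR1 did not pass. The labels do not tie the libraries of a group to different cultures, and the p-values therefore reflect the scatter among these libraries alone, which may be technical. In bulk RNA a smaller share of expressing cells and less RNA per cell cannot be told apart.

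**Figure D1:**
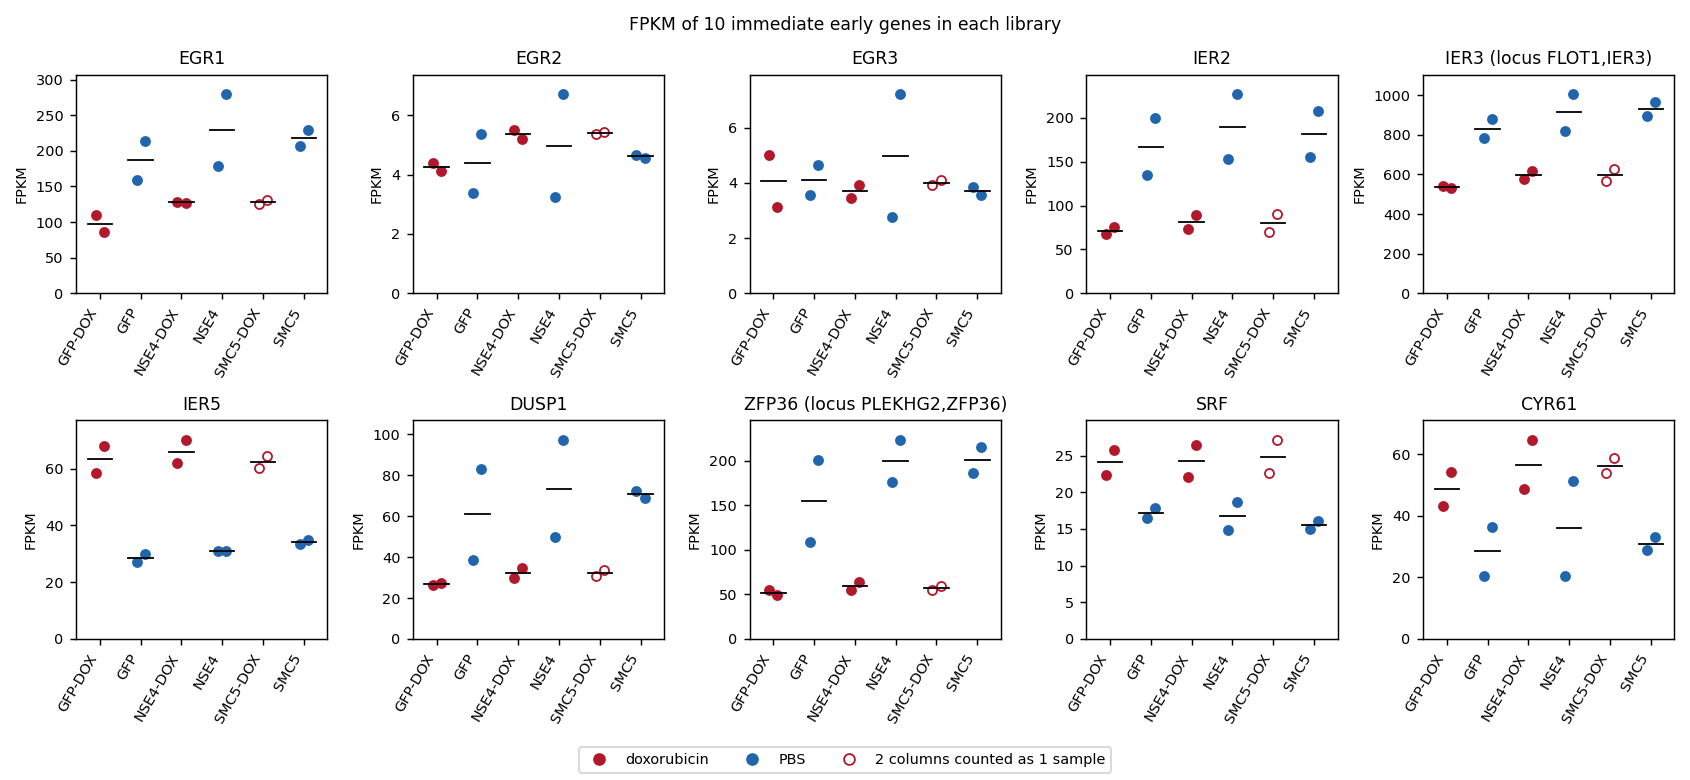
FPKM of the 10 genes in each library, with groups along the x axis, doxorubicin groups in red left of their PBS groups in blue and a black line at each mean; open points are the SMC5-DOX columns counted as 1 sample. For EGR1, IER2, the IER3 locus, DUSP1 and the ZFP36 locus every red point lies below every blue one, and for IER5 and SRF every red point lies above.

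EGR1, a zinc finger transcription factor that binds GC-rich sites, had the highest FPKM of the EGR genes. It stood at 110 and 85.7 FPKM in GFP-DOX against 160 and 214 FPKM in GFP. It stood at 129 and 127 FPKM in NSE4-DOX against 179 and 279 FPKM in NSE4, and at 125 and 131 FPKM in the SMC5-DOX columns against 206 and 229 FPKM in SMC5. The highest of the doxorubicin libraries thus lay below the lowest of the PBS libraries. EGR1 fell, with a difference of −0.92 on the log2(FPKM + 1) scale in GFP cells (SE 0.22, limma adjusted p = 0.0154) and of −0.80 in NSE4 cells (SE 0.22, adjusted p = 0.0275). In SMC5 cells its difference was −0.76 and was not called (SE 0.27, adjusted p = 0.0828), while it was called with the 12 columns as separate samples (0.0214), with GC content adjustment (0.0387) and without either NSE4 library (0.0391 and 0.0392). The call in GFP cells was lost without GFP replicate 2 (adjusted p = 0.0987) or GFP-DOX replicate 2 (0.098). In NSE4 cells it was lost without NSE4 replicate 2, which also took the difference to −0.48 (0.134), without NSE4-DOX replicate 1 (0.0974) or replicate 2 (0.101), and with no filter on low values (0.0634).

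EGR2 and EGR3, zinc finger factors of the same family that recognise similar sites, were low and were not called with doxorubicin in any background. EGR2 stood at 4.41 and 4.12 FPKM in GFP-DOX against 3.40 and 5.39 FPKM in GFP, at 5.51 and 5.22 FPKM in NSE4-DOX against 3.26 and 6.71 FPKM in NSE4, and at 5.37 and 5.42 FPKM in SMC5-DOX against 4.66 and 4.56 FPKM in SMC5. EGR3 stood at 5.02 and 3.12 FPKM in GFP-DOX against 3.56 and 4.64 FPKM in GFP, at 3.46 and 3.94 FPKM in NSE4-DOX against 2.78 and 7.21 FPKM in NSE4, and at 3.91 and 4.11 FPKM in SMC5-DOX against 3.85 and 3.55 FPKM in SMC5. The doxorubicin and PBS libraries of both genes overlap in GFP and in NSE4 cells, while in SMC5 cells both doxorubicin columns lie above both PBS libraries. For EGR2 the 95% interval of the log2 difference was −0.63 to 0.61 in GFP cells, −0.47 to 0.77 in NSE4 cells and −0.57 to 0.95 in SMC5 cells. For EGR3 it was −0.80 to 0.74, −1.02 to 0.52 and −0.85 to 1.04 in the same cells. On the log2(FPKM + 1) scale, the EGR1 difference in the same cells lies outside the EGR2 interval in each background. It lies outside the EGR3 interval in GFP cells but inside it in NSE4 and SMC5 cells. The 95% interval of EGR1 itself was −1.43 to −0.41 in GFP cells, −1.31 to −0.29 in NSE4 cells and −1.38 to −0.14 in SMC5 cells. These intervals overlap those of EGR2 and EGR3 in each background, and a difference between the genes was not tested. The added 1 FPKM shrinks the differences of these low genes more than that of EGR1. Equal folds are therefore not compared here, and an equal fold could lie inside an interval. An estimated 150 to 381 fragments per library lie behind EGR2 and 186 to 599 behind EGR3, against 3772 to 16793 behind EGR1.

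SRF, the factor that binds the CArG boxes shown above, rose with doxorubicin. It stood at 22.4 and 25.8 FPKM in GFP-DOX against 16.4 and 17.9 FPKM in GFP. It stood at 22.1 and 26.4 FPKM in NSE4-DOX against 14.9 and 18.7 FPKM in NSE4, and at 22.6 and 27.1 FPKM in SMC5-DOX against 15.1 and 16.0 FPKM in SMC5. The groups do not overlap, and the ratio of group means was 1.40 in GFP cells, 1.45 in NSE4 cells and 1.60 in SMC5 cells. On the log2 scale SRF rose by 0.46 (SE 0.14, limma adjusted p = 0.0393), 0.51 (SE 0.14, 0.0289) and 0.65 (SE 0.17, 0.0342) in these cells. With no filter on low values SRF missed the threshold in all 3 backgrounds (adjusted p = 0.0665, 0.0515 and 0.0594). Leaving out single libraries kept the call in 6 of 12 fits in GFP cells, 10 of 12 in NSE4 cells and 7 of 12 in SMC5 cells. It was lost in GFP cells without any 1 of the 4 GFP or GFP-DOX libraries or either SMC5 library, with a highest adjusted p of 0.184. It was lost in NSE4 cells without NSE4 replicate 1 (0.151) or NSE4-DOX replicate 2 (0.154), and in SMC5 cells without either GFP library, either SMC5 library or the second SMC5-DOX column (0.0506 to 0.116). Of the 2 other searched genes whose promoters hold CArG boxes, EGR1 was lower with doxorubicin and EGR2 was not called. The EGR2 intervals include a rise of the size of SRF's in each background.

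The 3 IER genes did not move together. IER2, which encodes a small growth factor-induced nuclear protein, stood at 67.4 and 75.2 FPKM in GFP-DOX against 135 and 199 FPKM in GFP. It stood at 73.8 and 89.6 FPKM in NSE4-DOX against 153 and 227 FPKM in NSE4, and at 69.7 and 90.5 FPKM in SMC5-DOX against 156 and 208 FPKM in SMC5. Every doxorubicin library lay below every PBS library, and IER2 fell, with log2 differences of −1.19 in GFP cells (SE 0.24, limma adjusted p = 0.00779), −1.19 in NSE4 cells (SE 0.24, 0.00828) and −1.16 in SMC5 cells (SE 0.30, 0.0288). The call was lost in GFP cells without GFP replicate 2 (0.0537) and in NSE4 cells without NSE4-DOX replicate 1 (0.0548). In SMC5 cells it was lost without SMC5 replicate 2 (0.11) and with no filter on low values (0.0656).

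IER3, a stress-inducible gene whose protein acts on cell survival and ERK signalling, lies in the locus with the highest FPKM of the 10. That locus stood at 542 and 534 FPKM in GFP-DOX against 782 and 878 FPKM in GFP. It stood at 577 and 617 FPKM in NSE4-DOX against 821 and 1004 FPKM in NSE4, and at 567 and 626 FPKM in SMC5-DOX against 893 and 963 FPKM in SMC5. The groups do not overlap. The IER3 locus fell, with log2 differences of −0.62 in GFP cells (SE 0.11, limma adjusted p = 0.00419), −0.61 in NSE4 cells (SE 0.11, 0.00496) and −0.64 in SMC5 cells (SE 0.14, 0.0141). Quantile normalization, which forces the same distribution on each sample, left smaller differences of −0.35, −0.30 and −0.37 that still passed. The SMC5 call was lost without SMC5 replicate 2 (0.0618).

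IER5, known as a cofactor of the heat shock factor HSF1 and as a p53 target, went the other way. It stood at 58.6 and 68.0 FPKM in GFP-DOX against 27.0 and 30.0 FPKM in GFP. It stood at 61.9 and 70.1 FPKM in NSE4-DOX, against 30.9 FPKM in both NSE4 libraries. It stood at 60.2 and 64.6 FPKM in SMC5-DOX against 33.5 and 35.0 FPKM in SMC5. IER5 thus roughly doubled, with ratios of group means of 2.22, 2.14 and 1.82, and its libraries within a group lay close to each other. It rose by 1.12 in GFP cells (SE 0.11, limma adjusted p = 3.00e-04), 1.07 in NSE4 cells (SE 0.11, 0.000357) and 0.85 in SMC5 cells (SE 0.14, 0.00433). IER5 and the ZFP36 locus were the genes of the 10 whose calls held in each of the 21 alternative fits in all 3 backgrounds.

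**Figure D2:**
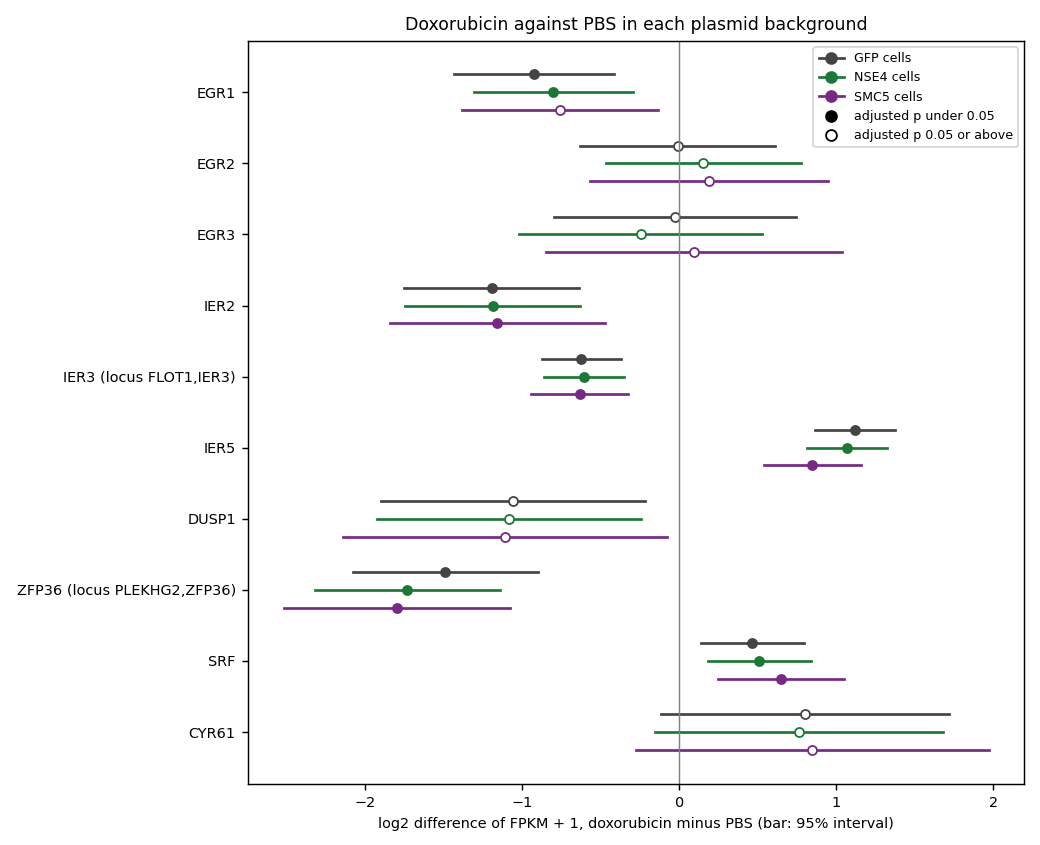
Log2 difference of FPKM + 1, doxorubicin minus PBS, for each gene in GFP, NSE4 and SMC5 cells, with limma's 95% interval as a bar and a filled point where the adjusted p was under 0.05. IER5 and SRF lie right of 0, EGR1, IER2, the IER3 locus, DUSP1 and the ZFP36 locus lie left of 0, and the points of a gene in the 3 backgrounds lie close together.

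DUSP1 and ZFP36 encode feedback proteins, and both were lower with doxorubicin. DUSP1, a nuclear phosphatase that inactivates MAP kinases, stood at 26.3 and 27.2 FPKM in GFP-DOX against 38.8 and 83.3 FPKM in GFP. It stood at 30.0 and 34.9 FPKM in NSE4-DOX against 49.8 and 97.2 FPKM in NSE4, and at 30.6 and 33.8 FPKM in SMC5-DOX against 72.5 and 69.1 FPKM in SMC5. All doxorubicin libraries lay below all PBS libraries, but the PBS libraries of GFP and NSE4 cells were far apart. The log2 differences were −1.06 in GFP cells (SE 0.37, limma adjusted p = 0.0587), −1.08 in NSE4 cells (SE 0.37, 0.0557) and −1.11 in SMC5 cells (SE 0.45, 0.117), and none was called. In GFP cells 7 of the 9 alternatives that keep all libraries called DUSP1 lower (0.0229 to 0.122 over the 9), in NSE4 cells also 7 of 9 (0.0209 to 0.118), and in SMC5 cells 2 of 9 (0.0362 and 0.0486). Without replicate 2 of the PBS libraries the difference was −0.52 in GFP cells (0.316) and −0.61 in NSE4 cells (0.279), and without replicate 1 it was −1.60 (0.0178) and −1.56 (0.0275) in these cells.

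ZFP36 encodes tristetraprolin, which binds AU-rich elements and promotes decay of the message. Its locus stood at 54.8 and 49.1 FPKM in GFP-DOX against 108 and 201 FPKM in GFP. It stood at 54.7 and 63.6 FPKM in NSE4-DOX against 176 and 223 FPKM in NSE4, and at 54.7 and 59.4 FPKM in SMC5-DOX against 187 and 216 FPKM in SMC5. The doxorubicin libraries lay within a narrow band, well below the PBS libraries. The ZFP36 locus fell, with log2 differences of −1.49 in GFP cells (SE 0.26, limma adjusted p = 0.0037), −1.73 in NSE4 cells (SE 0.26, 0.00189) and −1.80 in SMC5 cells (SE 0.31, 0.00631), which were the largest differences among the 10 genes. The ratio of group means was 0.336, 0.296 and 0.283.

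CYR61, also named CCN1, encodes a secreted matricellular protein and is a target of SRF and of the YAP and TEAD factors. It stood at 43.1 and 54.1 FPKM in GFP-DOX against 20.6 and 36.2 FPKM in GFP. It stood at 48.7 and 64.5 FPKM in NSE4-DOX against 20.6 and 51.3 FPKM in NSE4, and at 53.7 and 58.7 FPKM in SMC5-DOX against 28.7 and 33.0 FPKM in SMC5. Within GFP and within SMC5 cells the groups were separate, and in NSE4 cells PBS replicate 2 lay above doxorubicin replicate 1. Its log2 differences were 0.80 in GFP cells (SE 0.40, limma adjusted p = 0.167), 0.76 in NSE4 cells (SE 0.40, 0.186) and 0.85 in SMC5 cells (SE 0.49, 0.259), and none was called. With the replicate number as a block, CYR61 was called in GFP cells (limma adjusted p = 0.0396) and in NSE4 cells (0.0465). The difference in NSE4 cells was 1.40 and passed without NSE4 replicate 2 (0.0233), and was 0.12 without NSE4 replicate 1 (0.823). In GFP cells it was 0.41 without GFP replicate 1 (0.573).

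Set over all backgrounds together, the doxorubicin and PBS libraries of 7 of the 10 genes do not overlap, 5 lower (EGR1, IER2, the IER3 locus, DUSP1 and the ZFP36 locus) and 2 higher (IER5 and SRF). Of all loci tested 40.6% do not overlap, 18.6% lower and 22.0% higher. This share was taken with the SMC5-DOX columns averaged as 1 sample, while the 10 genes were read with both columns. The 10 genes therefore held more lower members than the background share, and about as many higher ones. They were chosen with earlier results of these data known, and the background share was not matched to their expression levels. The median log2 difference of the 10 was −0.33 in GFP cells, −0.43 in NSE4 cells and −0.27 in SMC5 cells, against 0.02, 0.03 and 0.02 over all loci. These comparisons use other libraries for each background, but the fits share 1 estimate of the spread.

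The libraries of a group differed more for these genes in untreated GFP and NSE4 cells than elsewhere. In GFP cells 4 of the 10 genes differed at least 1.5-fold between the libraries (EGR2, DUSP1, the ZFP36 locus and CYR61). In NSE4 cells 5 did (EGR1, EGR2, EGR3, DUSP1 and CYR61). Among the tested loci above 0 in both libraries, 13.3% and 15.4% did so. In GFP-DOX 1 gene did (EGR3), against 13.5% of loci, and in NSE4-DOX and SMC5 cells 0 did, against 12.9% and 12.5%. The ratio of replicate 2 to replicate 1 reached 2.15 for DUSP1 in GFP cells, and in NSE4 cells 2.60 for EGR3 and 2.50 for CYR61. Replicate 2 was the higher library for all 10 genes in GFP and in NSE4 cells, for 7 in SMC5 cells, and for 5 and 8 in GFP-DOX and NSE4-DOX. IER5 had the closest pair in NSE4 cells, with a ratio of 1.00. In the 5 pairs of separate libraries the log2 ratio of replicate 2 to replicate 1 had a Spearman correlation with transcript GC content of 0.257 to 0.556 across 7329 loci, which are not independent replicates, and the median GC content of the 10 genes was 55.2%, against 48.8% of tested coding genes. The part of GC content in the spread between replicates of these genes was not tested.

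**Figure D3:**
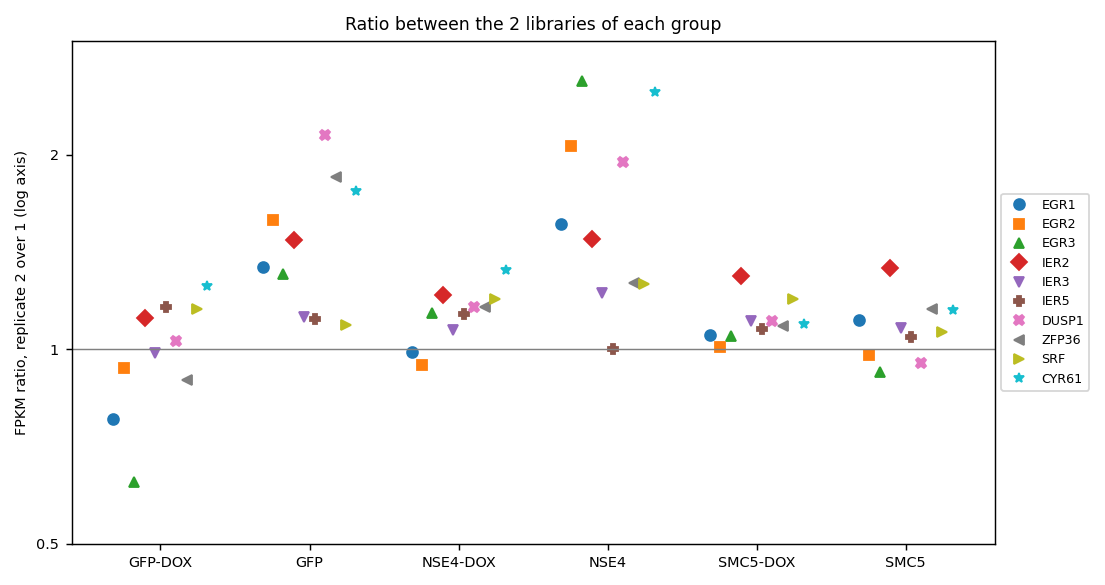
Ratio of FPKM in replicate 2 to replicate 1 for each gene (marker) in each group (x axis), on a log axis with a grey line at 1. In GFP and NSE4 cells all points lie at or above 1 and reach 2.15 and 2.60. In SMC5 cells and in the doxorubicin groups most points lie nearer to 1, but EGR3 lies at 0.622 in GFP-DOX against 1.31 in GFP. The SMC5-DOX columns count as 1 sample.

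The SMC5/6 plasmids were then set against the GFP plasmid, to see whether overexpressed subunits shift these genes with or without the drug. In limma 0 of the 10 genes was called for NSE4-DOX against GFP-DOX, where 0.0568% of loci were called, and 0 for NSE4 against GFP, where 0.0442% were. For SMC5-DOX against GFP-DOX the count was 0 against a background of 0.0316%, and for SMC5 against GFP it was 0 against a background of 0%. Each of the 40 adjusted p-values was 1. At an unadjusted p under 0.05 there was 1 gene in 1 of these comparisons, IER5 in SMC5 against GFP cells (33.5 and 35.0 FPKM against 27.0 and 30.0 FPKM, log2 difference 0.26, unadjusted p = 0.0489), and 0 in the other 3. The NSE4 and SMC5 comparisons use the same GFP libraries.

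The intervals show what size of plasmid effect the data leave possible. For EGR1 the difference to GFP cells was 0.40 in NSE4-DOX (95% interval −0.11 to 0.91), 0.28 in NSE4 (−0.23 to 0.78), 0.40 in SMC5-DOX (−0.22 to 1.02) and 0.24 in SMC5 (−0.27 to 0.74). For the ZFP36 locus it was 0.18 in NSE4-DOX (−0.41 to 0.77), 0.42 in NSE4 (−0.17 to 1.01), 0.13 in SMC5-DOX (−0.59 to 0.85) and 0.44 in SMC5 (−0.15 to 1.03). IER5 and the IER3 locus had the narrowest intervals, and their bounds stayed within −0.33 and 0.51. For DUSP1 and CYR61 the upper bounds lay between 1.08 and 1.34.

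**Figure D4:**
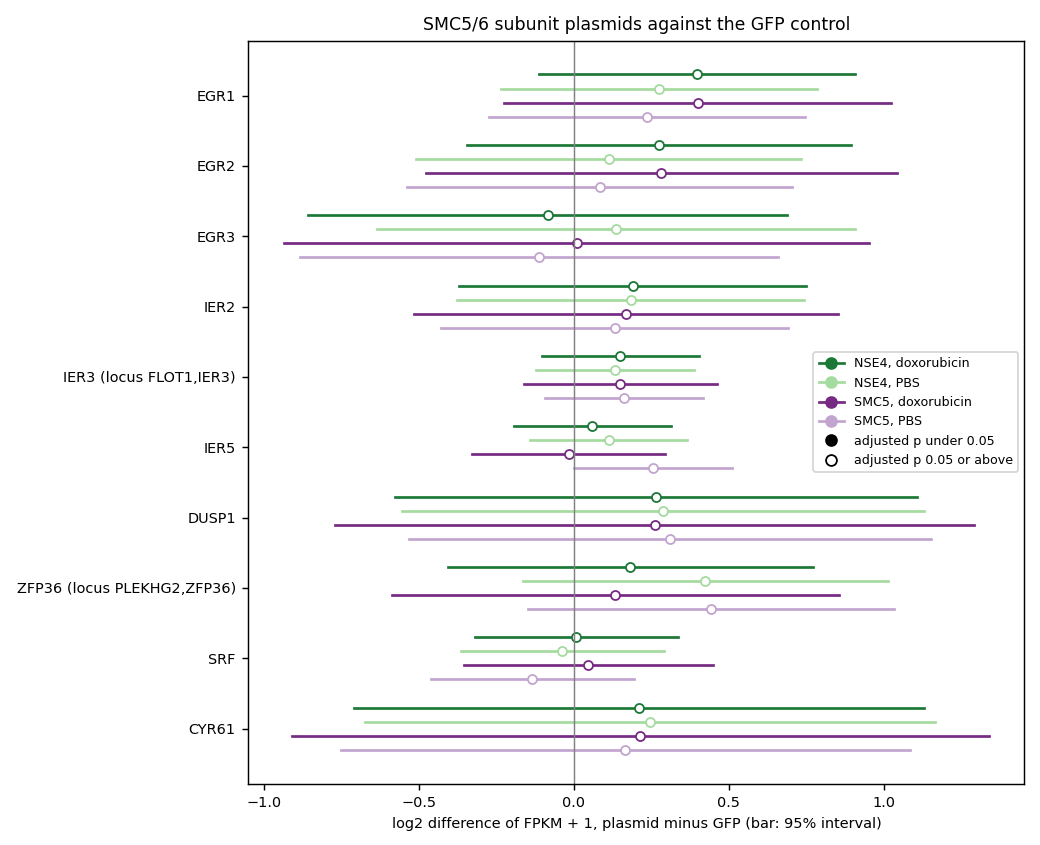
Log2 difference of FPKM + 1 between NSE4 or SMC5 cells and GFP cells, with and without doxorubicin, for each gene, with limma's 95% interval as a bar. All points are open because none passed the adjusted p of 0.05, and 39 of the 40 intervals include 0, the exception being IER5 in SMC5 cells without doxorubicin.

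Whether the plasmids changed the response to doxorubicin was tested as an interaction. The doxorubicin difference of NSE4 cells minus that of GFP cells passed for 0 of the 10 genes (0.0316% of loci) and that of SMC5 cells for 0 (0.0189%), with 0 genes at an unadjusted p under 0.05 in either. The largest in size were −0.31 for the ZFP36 locus in SMC5 cells (95% interval −1.24 to 0.62) and −0.27 for IER5 in SMC5 cells (−0.67 to 0.13). For EGR1 the interaction was 0.12 in NSE4 cells (−0.60 to 0.84) and 0.16 in SMC5 cells (−0.64 to 0.97). EGR1 was called in GFP and NSE4 cells but not in SMC5 cells, and a difference in its response between these cells was not detected.

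Genes around the 10 were counted in 6 lists, by the same test, and are read beside the share of all loci that fell and rose, which was 14.1% and 17.0% in GFP cells, 13.9% and 16.3% in NSE4 cells and 9.87% and 11.0% in SMC5 cells. Of 24 other immediate early genes, 11 fell and 4 rose in GFP cells, 12 fell and 3 rose in NSE4 cells, and 11 fell and 2 rose in SMC5 cells, with median log2 differences of −0.41, −0.57 and −0.59. Without SMC5 replicate 2 the total called in SMC5 cells was 8. DUSP6, a cytoplasmic phosphatase of ERK, stood at 61.4 and 60.7 FPKM in GFP-DOX against 165 and 161 FPKM in GFP and fell, with log2 differences of −1.40, −1.37 and −1.47 in GFP, NSE4 and SMC5 cells (limma adjusted p = 8.06e-05, 9.37e-05 and 0.000358). ZFP36L1, a paralog of ZFP36 that also binds AU-rich elements, stood at 83.4 and 78.1 FPKM in GFP-DOX against 151 and 179 FPKM in GFP and fell (log2 differences −1.01, −1.0 and −1.01). KLF4, a zinc finger factor of epithelial differentiation, stood at 24.6 and 20.9 FPKM in GFP-DOX against 46.8 and 57.8 FPKM in GFP and fell (log2 differences −1.16, −1.25 and −1.31). BTG2, an antiproliferative p53 target, went the way of IER5, at 88.0 and 105 FPKM in GFP-DOX against 19.5 and 25.1 FPKM in GFP, and rose by 2.07, 1.99 and 1.98.

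The list of SRF and EGR cofactors holds 8 genes, of which 1 shares its locus with another coding gene and 6 were tested. In this list 0 rose, and 1 fell in GFP cells, 2 in NSE4 cells and 1 in SMC5 cells, where 1 of 6 is near the 14.1% of all loci that fell in GFP cells. With all libraries kept, the total called was 2 in GFP cells with GC content adjustment, alone or with the replicate block. It was 1 in NSE4 cells with no filter on low values. In SMC5 cells it was 2 with quantile normalization or with the 12 columns as separate samples. The total moved between 1 and 2 in each background, to 2 in GFP cells without GFP replicate 2 or GFP-DOX replicate 1, to 1 in NSE4 cells without NSE4 replicate 2 or any 1 of the NSE4-DOX, GFP-DOX or SMC5 libraries, and to 2 in SMC5 cells without either NSE4 library. ELK3, a ternary complex factor that binds beside SRF, stood at 17.0 and 16.1 FPKM in GFP-DOX against 31.9 and 29.7 FPKM in GFP and fell, with log2 differences of −0.86, −0.85 and −0.90 in GFP, NSE4 and SMC5 cells (limma adjusted p = 0.000939, 0.00102 and 0.00327). NAB1, a corepressor of EGR proteins, was called lower in NSE4 cells (−0.46, adjusted p = 0.0354), a call that 8 of 21 alternatives lost (−0.27 without NSE4 replicate 2), and its differences of −0.28 in GFP cells (0.156) and −0.45 in SMC5 cells (0.0947) did not pass. ELK4, another ternary complex factor, and MKL2, an MRTF coactivator, did not pass in GFP cells. Their differences were 0.18 and −0.43 (limma adjusted p = 0.278 and 0.364). MKL2 stood at 12.1 and 11.9 FPKM in GFP-DOX against 24.6 and 11.0 FPKM in GFP. Its difference was −0.97 without GFP replicate 2 and 0.12 without GFP replicate 1.

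Of the cytoskeletal targets of SRF and MRTF, 4 of 9 tested rose and 1 fell in GFP and in NSE4 cells, and 3 rose and 1 fell in SMC5 cells. ACTA2, smooth muscle actin, stood at 16.6 and 18.0 FPKM in GFP-DOX against 3.24 and 3.74 FPKM in GFP and rose by 2.03, 1.78 and 1.91 in GFP, NSE4 and SMC5 cells. FLNA, the actin crosslinker filamin A, stood at 521 and 615 FPKM in GFP-DOX against 140 and 142 FPKM in GFP and rose by 1.99, 2.14 and 2.10. FHL2, a LIM domain protein, stood at 106 and 116 FPKM in GFP-DOX against 64.4 and 72.4 FPKM in GFP and rose by 0.69, 0.77 and 0.66. ACTG1, cytoplasmic gamma actin, was the gene that fell, at 1385 and 1293 FPKM in GFP-DOX against 4046 and 4525 FPKM in GFP (log2 differences −1.68, −1.52 and −1.47). With quantile normalization the ACTG1 difference in NSE4 cells shrank to −0.96. The calls of these 4 genes held in all 21 alternatives (highest limma adjusted p = 0.0469, for FHL2 in SMC5 cells).

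Of the YAP and TEAD targets, the list closest to CYR61, 5 of 8 genes were tested and 4 rose in GFP cells, 4 in NSE4 cells and 3 in SMC5 cells, with 0 falling. CTGF, the matricellular paralog of CYR61, stood at 27.0 and 30.6 FPKM in GFP-DOX against 4.81 and 7.37 FPKM in GFP and rose by 2.09, 2.21 and 2.13 in GFP, NSE4 and SMC5 cells (limma adjusted p = 0.000239, 0.000179 and 0.000998). F3, which encodes tissue factor, stood at 23.7 and 25.7 FPKM in GFP-DOX against 11.3 and 11.9 FPKM in GFP and rose by 1.03, 1.04 and 1.16. AMOTL2, a junction protein, rose by 0.68, 0.93 and 0.98 in the same cells, and ARHGEF17 by 0.50 in GFP cells and 0.69 in NSE4 cells. The AMOTL2 call in GFP cells was lost without GFP replicate 1 (0.117) or GFP-DOX replicate 2 (0.12), which with ARHGEF17 left 2 genes called, and the AMOTL2 call in SMC5 cells was lost without SMC5 replicate 1 (0.0691). The ARHGEF17 call was lost in GFP cells in 12 of 21 alternatives, with a difference of 0.33 without GFP replicate 1, and in NSE4 cells without NSE4 replicate 1 (0.0817) or NSE4-DOX replicate 2 (0.0814).

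Of AU-rich messages bound by ZFP36, 7 of 9 were tested, of which 2 rose and 2 fell in GFP cells, where 17.0% and 14.1% of all loci did, and 1 rose and 2 fell in NSE4 and in SMC5 cells. The total in GFP cells was 2 without GFP replicate 2 or either GFP-DOX library. PLAUR, the urokinase receptor, stood at 33.6 and 32.2 FPKM in GFP-DOX against 72.6 and 73.6 FPKM in GFP and fell, with log2 differences of −1.13, −0.93 and −1.05 in GFP, NSE4 and SMC5 cells (limma adjusted p = 0.00117, 0.003 and 0.00653). VEGFA, a vascular growth factor, stood at 86.6 and 88.7 FPKM in GFP-DOX against 47.9 and 50.5 FPKM in GFP and rose by 0.82, 0.99 and 1.01. CXCL1, a chemokine, fell (log2 differences −0.81, −0.79 and −1.26) with calls that 8, 7 and 2 of 21 alternatives lost. CSF2, a cytokine gene near the lower limit of the filter at 1.26 and 1.34 FPKM in GFP-DOX against 0.456 and 0.263 FPKM in GFP, was called in GFP cells alone, and 5 of 20 alternatives lost that call.

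Of 14 genes of the signal upstream, 12 were tested, and 2 rose in each background while 1 fell in GFP cells and 2 fell in NSE4 and SMC5 cells. In GFP cells these shares are at or below the 17.0% and 14.1% of all loci, and the total of 4 was 2 without NSE4-DOX replicate 1 in NSE4 cells and without SMC5 replicate 2 in SMC5 cells. In the main fit, 2 of 12 in each direction lies above the 9.87% and 11.0% of all loci that fell and rose in SMC5 cells. It lies slightly above the 13.9% and 16.3% in NSE4 cells. HBEGF, a ligand of the EGF receptor, stood at 22.3 and 25.2 FPKM in GFP-DOX against 6.71 and 8.67 FPKM in GFP and rose by 1.52, 1.43 and 1.45 in GFP, NSE4 and SMC5 cells (limma adjusted p = 0.000455, 0.000609 and 0.00243). HRAS, a small GTPase of the ERK pathway, stood at 104 and 124 FPKM in GFP-DOX against 52.5 and 54.0 FPKM in GFP and rose by 1.08, 1.06 and 1.08. EGFR itself, at 11.6 and 9.12 FPKM in GFP-DOX against 17.7 and 19.0 FPKM in GFP, fell (log2 differences −0.78, −0.62 and −0.56). The EGFR call in SMC5 cells was lost in 11 of 21 alternatives and the one in NSE4 cells without NSE4-DOX replicate 1 (0.0683). MAP2K2, an ERK pathway kinase, fell in NSE4 cells (−0.44) and SMC5 cells (−0.56), and its difference of −0.29 in GFP cells (0.0565) did not pass. Its calls were lost in NSE4 cells without NSE4 replicate 2 (0.0561) or NSE4-DOX replicate 1 (0.0759), and in SMC5 cells without SMC5 replicate 2 (0.064). For each list the counts were 0 in the plasmid comparisons and interactions.

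**Figure D5:**
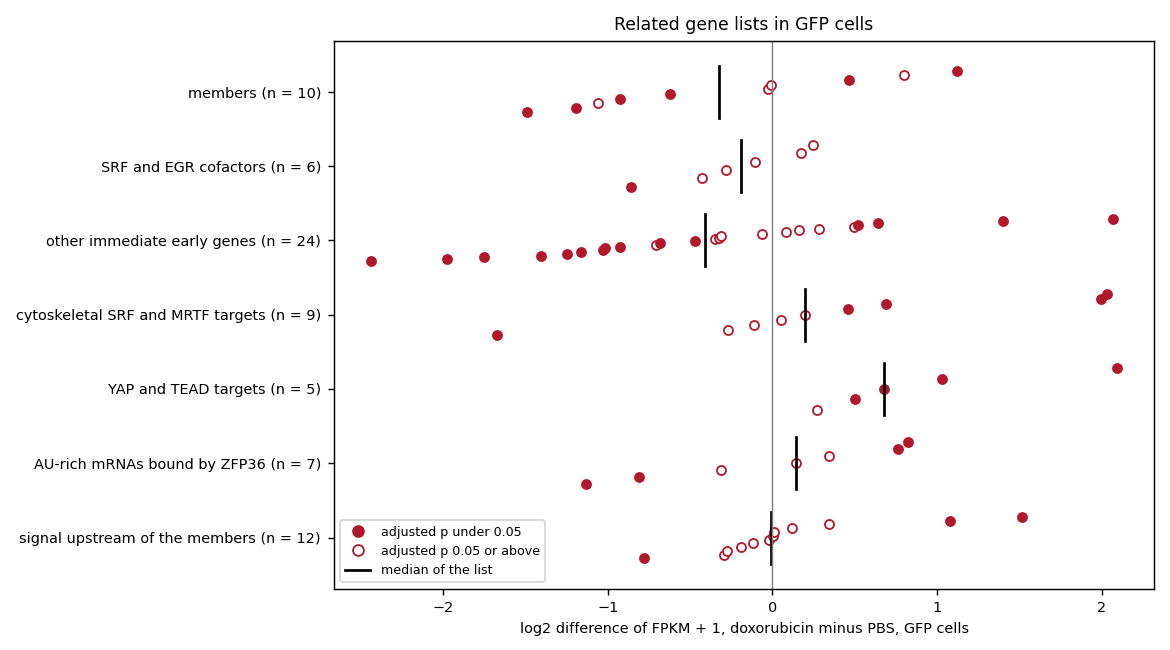
Log2 difference of FPKM + 1, doxorubicin minus PBS, in GFP cells for the 10 genes (top row) and the tested genes of 6 related lists; each point is a gene, filled where limma's adjusted p was under 0.05, and the black line is the median of the list. The YAP and TEAD targets lie right of 0, most called genes among the other immediate early genes lie left of 0, and the remaining lists spread to both sides.

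For 4 of the genes, the loci with the most similar pattern over the 6 group means were looked up among 8775 protein-coding loci, by the root mean square difference of centred log2(FPKM + 1). For EGR1 these were NPRL3 (0.068), TSC22D1 (0.072) and DNAH14 (0.080), and TSC22D1 averaged 84.1 FPKM over the doxorubicin groups and 151 FPKM over the PBS groups. For the IER3 locus they were LGALS1 (0.018), QKI (0.031) and TMSB10 (0.032), where LGALS1, galectin 1, averaged 1888 FPKM with doxorubicin and 2875 FPKM with PBS. For DUSP1 they were ARMC4 (0.046), IFI44 (0.063) and SKAP1 (0.064), all at low levels, with 4.31 FPKM with doxorubicin and 10.1 FPKM with PBS for IFI44. For CYR61 they were CST6 (0.027), ZNF517 (0.032) and SPAG4 (0.040), and CST6, a secreted cystatin, averaged 207 FPKM with doxorubicin and 119 FPKM with PBS. With 6 points that split mainly by treatment, such likeness describes these group means alone.

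Most of the 10 genes have few exons, and the choice by symbol did not use gene structure. In GENCODE 29 the longest protein-coding transcript of the basic set was taken for each gene. In it 8 of the 10 have at most 4 exons, all but SRF with 7 and CYR61 with 5, against 20.6% of 8783 tested coding genes. IER2, IER3 and IER5 have 1 exon in that transcript, as do 2.64% of those genes. IER2 and IER3 list 3 and 2 transcripts, and exons of the others were not counted. The AU-rich core TATTTAT lies in the 3′ untranslated region of 6 of the 10 (IER3, IER5, DUSP1, ZFP36, SRF and CYR61), against 35.4% of coding genes, and ATTTA in 9 of 10, against 72.9%. IER5 has the most copies of ATTTA, 10 in 3013 bases, and IER2 has 0 in 1050 bases. The genes with TATTTAT include IER5 and SRF, which rose, and the IER3 and ZFP36 loci, which fell, while EGR1 and IER2, which also fell, have none.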

How the data were processed

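Messenger RNA of 12 HCT116 libraries was measured in 6 groups of 2. The authors deposited FPKM values per locus, made with TopHat and Cufflinks per the submitters' processing notes. Versions, the genome build and strand handling are not given in the sources used here. The deposited table has 57908 loci (1551 unnamed) and 12 value columns, all used. No counts are given, and precision is limited by an estimated 13.1 to 19.2 M (1e6) fragments per library, read from single-fragment steps in transcripts of at least 1500 bases.

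Values were tested as log2(FPKM + 1) with limma 3.58.1 in R 4.3.3, with an intensity trend, in 1 fit of 6 groups and 11 samples (5 residual degrees of freedom), with the SMC5-DOX columns averaged. In comparisons with that lone sample its spread is assumed to equal that of the other groups. Loci entered where 2 or more samples reached 1 FPKM. P-values were adjusted by Benjamini-Hochberg within each of 9 comparisons over 15833 loci, at a threshold of 0.05, to which "rose", "fell" and "called" refer. Fold changes on this scale understate those of low genes. The test was also run on simulated data with independent noise and few changed loci, in GFP-DOX alone. That setting differs from these data, in which many loci changed with doxorubicin, so it does not give the power reached here.

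The members and lists were chosen with earlier results of these data known. The rule names all 10 genes in every group, the plasmid genes, CDKN1A, up to 4 genes a list by smallest p for doxorubicin in GFP cells, and the 3 nearest patterns of EGR1, IER3, DUSP1 and CYR61. List genes whose locus names another coding gene were left out. Alternatives were another pseudocount (0.1 FPKM), no filter, a filter of 5 FPKM, 2 scalings, a replicate block, 12 columns as separate samples and leaving out each library. GC content adjustment, alone and with the block, was chosen after seeing the data. Promoters came from RefSeq (GRCh38.p14) and gene structure from GENCODE 29. Figures were drawn in matplotlib 3.10.9, with tables from numpy 2.4.6 and pandas 2.3.3 under Python 3.11.15.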

Additional observations from a re-analysis of the deposited data

How the results depend on the processing

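For the 9 comparisons, the number of the 10 genes called was compared over 9 alternatives that keep all libraries and 12 that leave out 1 column. For doxorubicin in GFP cells it was 6 and ranged from 5 to 8, in NSE4 cells 6 with a range of 4 to 8, and in SMC5 cells 5 with a range of 3 (no filter on low values) to 7. Leaving out single libraries gave 3 to 7 in GFP cells, 4 to 7 in NSE4 cells and 2 to 6 in SMC5 cells, with the fewest without GFP replicate 2 and without SMC5 replicate 2; the cause was not tested. The 0 counts of the plasmid comparisons and interactions stayed 0 in every alternative. With the replicate number as a block the counts were 8, 8 and 5, since DUSP1 (adjusted p = 0.0275 and 0.0262) and CYR61 (0.0396 and 0.0465) were then called in GFP and NSE4 cells. The log2 differences between replicates 2 and 1 correlated between groups at −0.0389 to 0.0732 over the tested loci, and the main fits did not pair the samples. That does not settle whether the numbers share an effect. The replicate difference went with GC content in the same direction in each separate pair (Spearman 0.257 to 0.556). The block also lowered the SE of IER2 in GFP cells from 0.244 to 0.107. Of the 90 differences of the 10 genes over the 9 comparisons, 43 changed sign in a fit without 1 library and 5 in another alternative, and 0 of these changes concerned a called difference. Of the differences given in the text, those that changed sign ranged as follows when single libraries were left out. With doxorubicin, EGR2 ranged from −0.28 to 0.259 in GFP and −0.276 to 0.58 in NSE4 cells, EGR3 from −0.3 to 0.246 and −0.807 to 0.314 in the same cells, and MKL2 from −0.974 to 0.116 in GFP, −0.337 to 0.169 in NSE4 and −0.188 to 0.227 in SMC5 cells, with −0.014 in SMC5 cells by quantile normalization. For NSE4 against GFP, EGR1 ranged from −0.0445 to 0.595 and the ZFP36 locus from −0.0172 to 0.864, and IER5 ranged from −0.0465 to 0.166 for NSE4-DOX and −0.123 to 0.0895 for SMC5-DOX against GFP-DOX. The interaction with NSE4 ranged from −0.198 to 0.442 for EGR1, −0.158 to 0.0545 for IER5 and −0.682 to 0.199 for the ZFP36 locus, and that with SMC5 from −0.0464 to 0.373 for EGR1 and −0.748 to 0.132 for the ZFP36 locus.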
